A study of Saccharomyces cerevisiae with 8 samples.

Results

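The lactate shift of *pbp1Δ* cells is the comparison of *S. cerevisiae* cells lacking *PBP1* after 3 h in lactate medium (YPL) with the same strain in log phase in glucose medium (YPD). It covered each gene that averaged 10 or more normalized counts in the 8 libraries of the study, 5759 of the 5774 genes in the table. The shift itself rests on 4 libraries, *pbp1Δ* cells in YPL (n = 2) and *pbp1Δ* cells in YPD (n = 2), and was set against the shift of WT cells in YPL (n = 2) and WT cells in YPD (n = 2). All strains were of the prototrophic CEN.PK background. The strain table gives *pbp1Δ* as *pbp1Δ::Hyg*, a replacement by a hygromycin resistance cassette, with no mating type, and WT as MATa. The labels call the libraries of a group biological replicates. A single strain stood for each genotype.

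Glucose represses the genes of respiration in yeast. On lactate, cells import the acid through Jen1, oxidize it with the mitochondrial lactate dehydrogenases Cyb2 and Dld1, burn the pyruvate in the tricarboxylic acid (TCA) cycle and make sugar from it by gluconeogenesis. The respiratory chain also needs subunits encoded in mitochondrial DNA, which are made by mitochondrial ribosomes that the nucleus supplies. Puf3 is an RNA-binding protein that recognizes an element in the 3′ untranslated region of many mRNAs for this machinery. Pbp1 was named for its binding to Pab1, the protein that coats mRNA tails, and its human relative is ataxin-2.

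*PBP1* (YGR178C, chromosome VII), the deleted gene, had 0 and 1 reads in the *pbp1Δ* libraries in YPL and 0 reads in both in YPD, against 11112 and 11202 normalized counts in WT libraries in YPL and 12686 and 11943 in YPD. Read numbers were inferred from the normalized counts, and the reads assigned to genes came to 33651287 to 39476235 per library. The genotypes also differed in mating-type genes: the α-factor gene *MF(ALPHA)1* had 36615 and 33306 normalized counts in *pbp1Δ* libraries in YPL, against 21 and 3 in WT libraries, while *STE2*, the α-factor receptor of a cells, had 390 and 345 against 4499 and 4165. Mating type and the deletion cannot be told apart in this design. Replicates lay farther apart in YPD than in YPL. The SD of their log2 difference was 0.31 in *pbp1Δ* cells in YPL and 0.53 in YPD, against 0.22 and 0.58 in WT cells, and the same-numbered YPD libraries of both genotypes deviated together (correlation 0.85).

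The following sites are shown because the mRNAs that carry them fall on both sides of the main result. Each was read downstream of the stop codon in the R64 reference (strain S288C, whereas the cells are CEN.PK), 5′ to 3′ on the strand of the gene, with the Puf3 element TGTANATA in capitals, and the genes were picked after their values were seen.
COX10: gtcattaatctTGTAAATAaatatttaaac
MRP51: attcagagttcTGTAAATAaataaagaaaa
MIA40: aggatgatacaTGTAAATAcagtaatatta
MSY1: atgcactgactTGTAAATAagattataaac
MRPL28: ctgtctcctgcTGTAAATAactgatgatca
SDH1: actcactaattTGTATATAtacctattaat
ATP1: tcaaaaagaaaTGTAAATAtagaaatttta
The 30 bases of *COX10* lie at chrXVI:224283-224312 on the minus strand, with the element starting 52 nt after the stop codon. Those of *MRP51* lie at chrXVI:327697-327726 (plus strand, 46 nt), of *MIA40* at chrXI:77077-77106 (plus, 56 nt), of *MSY1* at chrXVI:366497-366526 (plus, 78 nt) and of *MRPL28* at chrIV:1386537-1386566 (plus, 32 nt). The *SDH1* site lies at chrXI:169090-169119 (minus, 99 nt) and the *ATP1* site at chrII:38729-38758 (plus, 50 nt). The first 5 sites have a C at 1 or 2 bases before the element and those of *SDH1* and *ATP1* do not. The mRNAs of *COX10*, *MRP51*, *MIA40* and *MSY1* had a smaller estimated lactate shift in *pbp1Δ* than in WT cells, and those of *MRPL28*, *SDH1* and *ATP1* did not.

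*pbp1Δ* cells made a lactate response nearly as wide as that of WT cells. After 3 h, 1045 genes were higher (18.1% of those tested) and 871 were lower (15.1%) in *pbp1Δ* cells in YPL than in YPD, against 1110 (19.3%) and 907 (15.7%) in WT cells. A gene was called in limma where its adjusted p was under 0.05 and the size of its log2 fold change exceeded 0.58. For 73.6% of all genes the YPL and YPD libraries of *pbp1Δ* cells did not overlap. Of the genes called higher, 878 were shared, 84.0% of the *pbp1Δ* calls and 79.1% of the WT calls, and of those called lower 716 were shared (82.2% and 78.9%). No gene was called in opposite directions. Across genes, which are not independent replicates, the shifts of the genotypes had a Pearson correlation of 0.94 and a Spearman correlation of 0.92. With each library centred on its median, which moved the median shift of all genes to -0.12 in *pbp1Δ* and -0.13 in WT cells (0.01 and -0.0012 without it), 841 genes were higher and 1174 lower in *pbp1Δ* cells, against 941 and 1167 in WT cells.

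The difference of the shifts, the *pbp1Δ* shift minus the WT shift, was tested for each gene in the same model. At an adjusted p under 0.05 it was above 0 for 1 gene (0.0174%), *STE2*, and below 0 for 3 genes (0.0521%), *SUL1*, *MF(ALPHA)2* and *SAG1*. No single mitochondrial gene was called in this fit, which holds no replicate term. With a replicate block within each medium, added after seeing the data, the difference was called below 0 for 35 of 76 mitoribosomal genes, among others, and for *COX10* its adjusted p was 0.00218; the labels do not say that the numbers pair libraries. At an unadjusted p under 0.05 it was below 0 for 245 genes (4.25%) and above 0 for 159 (2.76%), and these counts rest on few libraries: they were 135 and 84 without WT YPL replicate 1, 108 and 95 without WT YPL replicate 2, and 176 and 105 without *pbp1Δ* YPL replicate 1. Over all genes the difference was below 0 for 48.6%, and for 32.9% its 95% interval lay within 0.58 of 0. Gene groups are therefore described by their medians and counts, beside these shares.

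**Figure D1:**
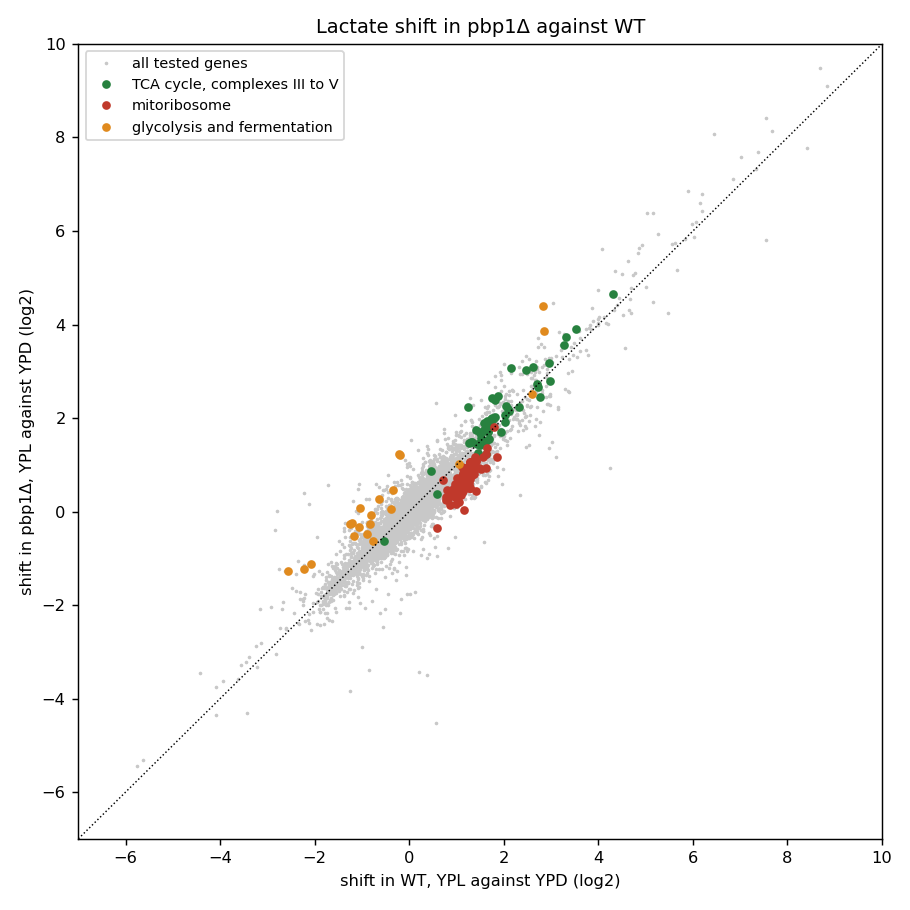
The log2 lactate shift of each of the 5759 genes in *pbp1Δ* cells (y axis) is plotted against that in WT cells (x axis), with the dotted line marking equal shifts. Genes of the TCA cycle and complexes III to V (green) lie around the line, mitoribosomal genes (red) lie below it with medians of 0.66 in *pbp1Δ* and 1.18 in WT cells, and genes of glycolysis and fermentation (orange) lie above it.

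*JEN1*, *CYB2* and *DLD1*, which serve the uptake and oxidation of lactate, rose steeply in *pbp1Δ* and in WT cells. *JEN1*, the lactate permease, had 132339 and 136754 normalized counts in *pbp1Δ* cells in YPL and 549 and 411 in YPD, against 102904 and 116675 in WT cells in YPL and 660 and 439 in YPD. The YPL libraries of both genotypes lay far above all YPD libraries, a 283-fold increase in *pbp1Δ* cells and a 203-fold increase in WT cells. The difference of the log2 shifts was 0.48 with a 95% interval of -0.27 to 1.22. *CYB2*, L-lactate dehydrogenase, rose 96.6-fold in *pbp1Δ* and 70.6-fold in WT cells, and *DLD1*, D-lactate dehydrogenase, rose 21.3-fold and 20.9-fold (difference 0.02, interval -0.35 to 0.40). Of the 5 genes in the list, 3 were called higher and 1 lower in each genotype. The gene called lower was *DLD3*, with log2 shifts of -1.36 in *pbp1Δ* and -1.30 in WT cells, and *DLD2* was not called (0.12 and 0.29).

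Gluconeogenesis and the glyoxylate cycle, which build sugar from 2-carbon and 3-carbon acids, had the largest median shift of the lists. *PCK1*, the phosphoenolpyruvate carboxykinase that starts gluconeogenesis, had 149585 and 185149 normalized counts in *pbp1Δ* cells in YPL and 283 and 317 in YPD, against 142557 and 197388 in WT cells in YPL and 439 and 301 in YPD. The levels of the genotypes overlapped in YPL, and the increase was 553-fold in *pbp1Δ* and 460-fold in WT cells. Of the 10 genes in the list, 9 rose in each genotype, with a median log2 shift of 6.41 in *pbp1Δ* and 6.20 in WT cells. *FBP1*, fructose-1,6-bisphosphatase, rose 138-fold and 115-fold, and *MLS1*, malate synthase, 192-fold and 130-fold. *ICL1*, isocitrate lyase, was the gene of the list with a difference at an unadjusted p under 0.05 (difference -0.68, unadjusted p = 0.0411, adjusted p = 0.689 in limma): it rose 22.4-fold in *pbp1Δ* and 35.8-fold in WT cells. *IDP2*, the cytosolic isocitrate dehydrogenase that makes NADPH, rose 162-fold in both (difference -0.00, interval -0.41 to 0.40).

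Genes of other carbon routes that glucose represses rose in *pbp1Δ* cells too. The median log2 shift was 2.71 in *pbp1Δ* and 2.68 in WT cells for the 13 genes of peroxisomal fatty acid oxidation, 12 of which rose in each genotype. Gene by gene the shift was mostly smaller in *pbp1Δ* cells: the difference was below 0 for 12 of the 13 (48.6% of all genes), with a median of -0.21, for 0 of them at an unadjusted p under 0.05, and its interval lay within 0.58 of 0 for 1. *ADH2*, the alcohol dehydrogenase that oxidizes ethanol, rose 53.5-fold in *pbp1Δ* and 49.6-fold in WT cells, and *ACS1*, acetyl-CoA synthetase, rose 52.5-fold and 46.8-fold. Among the 5 genes of the carnitine shuttle, which carries acetyl groups into mitochondria, the median difference was -0.50. *CAT2*, carnitine acetyltransferase, rose 6.15-fold in *pbp1Δ* and 9.76-fold in WT cells (difference -0.67, unadjusted p = 0.0337, adjusted p = 0.658 in limma). *CAT8* and *ADR1*, transcription factors that turn on these genes when glucose is gone, rose 9.99-fold and 15.0-fold in *pbp1Δ* cells and 8.60-fold and 13.4-fold in WT cells.

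TCA cycle transcripts rose with similar medians in *pbp1Δ* and WT cells. Of 18 genes, 17 were called higher in *pbp1Δ* and 18 in WT cells, with median log2 shifts of 2.69 and 2.66. *SDH1*, the flavoprotein subunit of succinate dehydrogenase, had 81731 and 75501 normalized counts in *pbp1Δ* cells in YPL and 3744 and 2619 in YPD, against 83489 and 90948 in WT cells in YPL and 4867 and 3990 in YPD. Its *pbp1Δ* level was the lower of the genotypes in both media, and its increase of 25.1-fold in *pbp1Δ* and 19.8-fold in WT cells differed by 0.34 on the log2 scale (interval -0.29 to 0.98). For 4 of the 18 genes the difference was above 0 at an unadjusted p under 0.05 (22.2%, against 2.76% of all genes) and for 0 below. *IDH2*, a subunit of NAD-dependent isocitrate dehydrogenase, rose 4.73-fold in *pbp1Δ* and 2.37-fold in WT cells (difference 1.00, unadjusted p = 0.00116, adjusted p = 0.405 in limma), and *ACO1*, aconitase, rose 5.36-fold and 3.38-fold (difference 0.67, adjusted p = 0.439). The median difference of the list was 0.32, and 0.04 to 0.55 when a library was left out. For 3 of the 18 genes the interval of the difference lay within 0.58 of 0, against 32.9% of all genes.

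The subunits of the respiratory complexes themselves, as far as they are encoded in the nucleus, rose with similar medians in both genotypes. *ATP1*, the α subunit of the ATP synthase, had 85404 and 85689 normalized counts in *pbp1Δ* cells in YPL and 23687 and 20115 in YPD, against 86393 and 86753 in WT cells in YPL and 28180 and 24495 in YPD. Its *pbp1Δ* and WT levels in YPL lay close together, and the 3.92-fold and 3.29-fold increases differed by 0.25 on the log2 scale (interval -0.15 to 0.65). All 15 ATP synthase subunits were called higher in each genotype, with medians of 1.75 and 1.67. For 10 of the 15 the interval of the difference lay within 0.58 of 0, against 32.9% of all genes. For complex III and cytochrome c, 10 of 11 genes were called in each genotype (medians 1.93 and 1.74), and 5 differences lay within these bounds. For the cytochrome c oxidase subunits, 9 of 10 genes were called in *pbp1Δ* and 8 in WT cells (medians 1.49 and 1.55), with 4 within the bounds. The 5 of 11 and 4 of 10 within the bounds are not far from the share of all genes. *COR1*, a core subunit of complex III, rose 4.76-fold in *pbp1Δ* and 4.12-fold in WT cells, and *COX4*, a cytochrome c oxidase subunit, rose 2.78-fold and 2.39-fold. The 5 mitochondrial NADH and glycerol phosphate dehydrogenases, which pass electrons to the chain in yeast, had medians of 2.99 and 2.74. None of the 36 genes of complex III with cytochrome c, the oxidase and the ATP synthase had a difference with an unadjusted p under 0.05 in limma, in either direction. Over all genes the shares were 4.25% below 0 and 2.76% above 0, so that 0 of 36 is not far from them. The difference was above 0 for 12 of 15 ATP synthase genes, 8 of 11 of complex III and cytochrome c and 5 of 10 oxidase subunits.

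**Figure D2:**
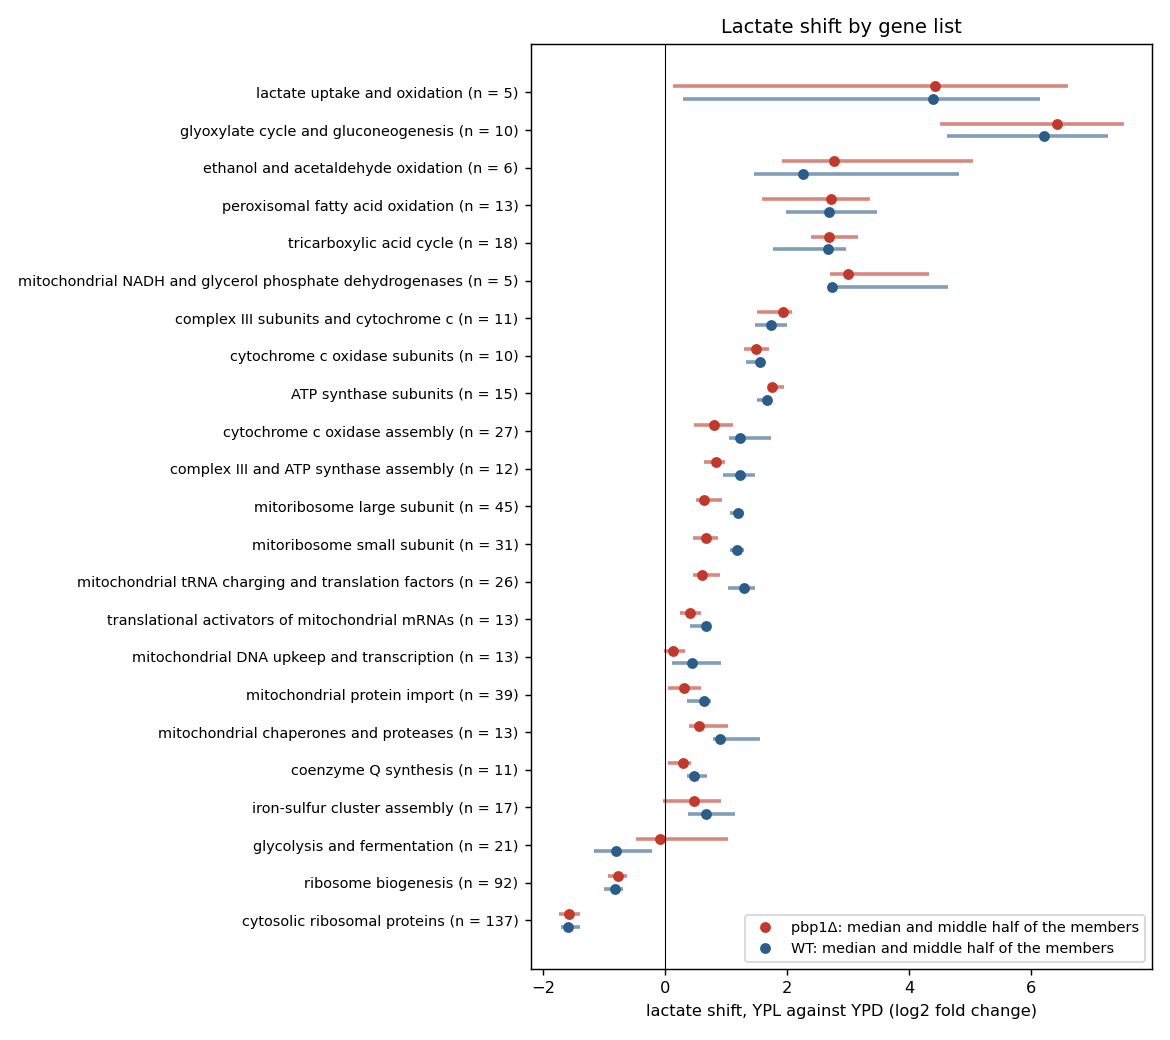
Median log2 lactate shift (points) and the range between the lower and upper quartile of the members (bars) for each gene list, in *pbp1Δ* (red, upper) and WT cells (blue, lower). The points of the TCA cycle (2.69 and 2.66) and of the ATP synthase (1.75 and 1.67) nearly coincide, whereas those of tRNA charging and translation factors (0.61 and 1.29) and of cytochrome c oxidase assembly (0.80 and 1.22) are apart.

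The mitochondrial ribosome had a smaller response in *pbp1Δ* cells, seen over nearly all of its genes. In WT cells 75 of 76 mitoribosomal genes were called higher in YPL, with a median log2 shift of 1.18. In *pbp1Δ* cells 43 were called higher, with a median of 0.66, and 0 were called lower. The difference of the shifts was below 0 for 75 of 76 genes (48.6% of all genes), with a median of -0.50 that ranged from -0.61 to -0.39 when a library was left out. At an unadjusted p under 0.05 it was below 0 for 43 genes (56.6%, against 4.25% of all genes) and above 0 for 0. This last count was 19 without WT YPD replicate 1, 26 without WT YPL replicate 1, 15 without WT YPL replicate 2, 20 without *pbp1Δ* YPD replicate 2 and 25 without *pbp1Δ* YPL replicate 1. The subunits behaved alike, with medians of 0.64 in *pbp1Δ* and 1.18 in WT cells for the 45 large subunit genes and 0.67 and 1.18 for the 31 small subunit genes.

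*MRP51*, a protein of the small subunit, had 5052 and 6085 normalized counts in *pbp1Δ* cells in YPL and 4018 and 4228 in YPD, against 12566 and 12239 in WT cells in YPL and 5572 and 5923 in YPD. The *pbp1Δ* libraries in YPL lay near the WT libraries in YPD, and the log2 shift of 0.43 ± 0.11 (SE, n = 2 libraries per group) in *pbp1Δ* cells was not called, against a called 1.11 ± 0.11 in WT cells. *RSM28*, also of the small subunit, had 4018 and 4500 in *pbp1Δ* cells in YPL and 3026 and 3213 in YPD, against 12562 and 13746 in WT cells in YPL and 4612 and 5348 in YPD (difference -0.96, unadjusted p = 0.000798, adjusted p = 0.328 in limma). *MRPL31*, of the large subunit, had the most negative difference of the list. Its *pbp1Δ* levels of 1978 and 2875 in YPL overlapped 2323 and 2310 in YPD, whereas its WT levels were 7207 and 7077 in YPL and 3069 and 3361 in YPD (log2 shift 0.04 in *pbp1Δ* and 1.15 in WT cells, difference -1.11, adjusted p = 0.439). The only member with a difference above 0 was *MRPL28*, a large subunit protein, with 3658 and 3828 in *pbp1Δ* cells in YPL and 1106 and 1040 in YPD, against 6836 and 7477 in WT cells in YPL and 1954 and 2185 in YPD. It rose 3.49-fold in *pbp1Δ* and 3.46-fold in WT cells (difference 0.01, interval -0.34 to 0.37), although its *pbp1Δ* level was 0.52 of the WT level in both media. *RSM22*, of the small subunit and the 1 member without the Puf3 element, also had similar log2 shifts, 0.67 in *pbp1Δ* and 0.70 in WT cells. Its difference of -0.03 ranged from -0.31 to 0.25 when a library was left out.

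The enzymes that charge mitochondrial tRNAs and the mitochondrial translation factors moved like the ribosome. Of 26 genes, 14 were called higher in *pbp1Δ* and 24 in WT cells, with medians of 0.61 and 1.29, and the difference was below 0 for 25. At an unadjusted p under 0.05 it was below 0 for 19 (73.1%), or 12 without WT YPL replicate 2, and above 0 for 0. *MSY1*, the mitochondrial seryl-tRNA synthetase, had 2638 and 2605 normalized counts in *pbp1Δ* cells in YPL and 1403 and 1384 in YPD, against 8797 and 9254 in WT cells in YPL and 2131 and 2413 in YPD. The replicates were close in all groups, and the increase was 1.88-fold in *pbp1Δ* and 3.98-fold in WT cells (difference -1.08 ± 0.14, SE; adjusted p = 0.081 in limma), with an adjusted p of 0.0016 to 0.719 over the other settings. *MEF1*, a mitochondrial elongation factor, rose 2.42-fold in *pbp1Δ* and 3.37-fold in WT cells (difference -0.48, unadjusted p = 0.022, adjusted p = 0.64). The 13 translational activators, which guide single mitochondrial mRNAs to the ribosome, had medians of 0.40 in *pbp1Δ* and 0.67 in WT cells. In *pbp1Δ* cells 3 were called higher (23.1%, against 18.1% of all genes), and 7 in WT cells. Their difference was below 0 for 11 of the 13, with a median of -0.23. For 0 of them it had an unadjusted p under 0.05 in limma, not far from the 4.25% of all genes below 0 and 2.76% above.

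Assembly factors of the respiratory chain stood apart from the subunits that they assemble. Of 27 genes for cytochrome c oxidase assembly, 19 were called higher in *pbp1Δ* cells, or 12 without *pbp1Δ* YPL replicate 2, and 25 in WT cells. The medians were 0.80 and 1.22, the difference was below 0 for 26, and at an unadjusted p under 0.05 for 12 (44.4%), or 5 without WT YPL replicate 2 and 7 without *pbp1Δ* YPL replicate 1. *COX10*, which makes the heme of this oxidase, had 2120 and 2165 normalized counts in *pbp1Δ* cells in YPL and 1226 and 1568 in YPD, against 7141 and 7276 in WT cells in YPL and 2175 and 2574 in YPD. Its *pbp1Δ* libraries in YPL thus lay below its WT libraries in YPD. The log2 shift was 0.63 ± 0.15 in *pbp1Δ* and 1.61 ± 0.15 in WT cells (SE), with a difference of -0.98 (interval -1.47 to -0.48, unadjusted p = 0.00257, adjusted p = 0.439 in limma). The shift in *pbp1Δ* cells was not called without *pbp1Δ* YPL replicate 1 (adjusted p = 0.0545), YPL replicate 2 (0.0643) or YPD replicate 1 (0.0535), nor with centred libraries, where it was 0.49.

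Within this list, *CMC1*, a copper-binding protein of the intermembrane space, rose 2.46-fold in WT cells and had a log2 shift of 0.30 ± 0.17 in *pbp1Δ* cells that was not called. *PNT1*, a protein of the inner membrane, had a shift of 0.00 ± 0.10 in *pbp1Δ* and 0.73 ± 0.10 in WT cells. *COX17*, a copper chaperone of the oxidase, rose 2.98-fold in *pbp1Δ* and 4.38-fold in WT cells, and its difference of -0.56 had an interval of -1.13 to 0.01. *COX19* and *CMC4*, the only members with no Puf3 element in the 200 nt after the stop codon, had differences of 0.04 (interval -0.44 to 0.51) and -0.04 (interval -0.96 to 0.88). For complex III and the ATP synthase, 9 of 12 assembly genes were called higher in *pbp1Δ* and 12 in WT cells (medians 0.83 and 1.22), and the difference was below 0 for 11. *CYT2*, the lyase that attaches heme to cytochrome c1, had a log2 shift of 0.68 in *pbp1Δ* and 1.44 in WT cells, whereas *CYC3*, the lyase for cytochrome c, had 1.99 and 1.82. The difference was -0.76 (adjusted p = 0.412) for *CYT2* and 0.17 (interval -0.15 to 0.49) for *CYC3*. With centred libraries the *CYT2* shift in *pbp1Δ* cells was 0.55, under the threshold.

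**Figure D3:**
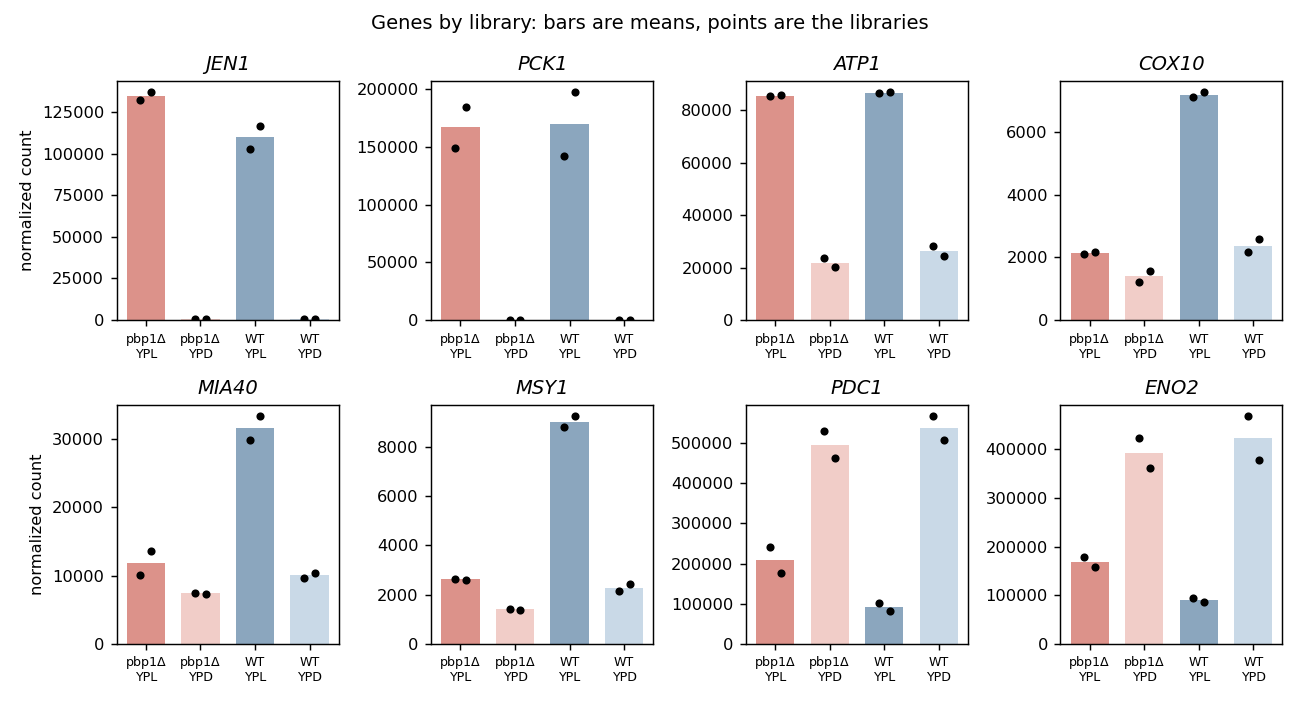
Normalized counts (y axes, starting at 0) of 8 genes in each library (points) with the mean of the 2 libraries of a group (bars), in the order *pbp1Δ* YPL, *pbp1Δ* YPD, WT YPL and WT YPD. *JEN1*, *PCK1* and *ATP1* reach similar YPL levels in both genotypes, the *pbp1Δ* YPL bars of *COX10*, *MIA40* and *MSY1* stay far below the WT YPL bars, and those of *PDC1* and *ENO2* stay above them.

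Protein import showed the same direction to a smaller degree. Among 39 import genes, 10 were called higher in *pbp1Δ* and 21 in WT cells, with medians of 0.31 and 0.63, and the difference was below 0 for 33. The *pbp1Δ* share of 25.6% was not far from the 18.1% of all genes, and the *pbp1Δ* count was 8 with centred libraries. The WT count was 13 without WT YPD replicate 1 or without WT YPL replicate 2, and 11 with centred libraries. At an unadjusted p under 0.05 the difference was below 0 for 10 import genes (25.6%), a count that was 3 without WT YPD replicate 1, WT YPL replicate 1 or *pbp1Δ* YPD replicate 2, and 2 without WT YPL replicate 2. *MIA40*, the import receptor of the intermembrane space, had 10018 and 13607 normalized counts in *pbp1Δ* cells in YPL and 7418 and 7310 in YPD, against 29792 and 33362 in WT cells in YPL and 9697 and 10305 in YPD. Its *pbp1Δ* replicates in YPL differed more than those of the other groups, and the shift of 0.66 in *pbp1Δ* cells was not called without *pbp1Δ* YPL replicate 2 (0.44), without *pbp1Δ* YPD replicate 2 (adjusted p = 0.0559) or with centred libraries (0.53). In WT cells it was 1.66, with a difference of -0.99 (interval -1.51 to -0.48, adjusted p = 0.439). *SOM1*, a subunit of the inner membrane peptidase, went the other way, with a 3.59-fold increase in *pbp1Δ* and a 2.15-fold increase in WT cells (difference 0.74, unadjusted p = 0.0131, adjusted p = 0.616).

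The median log2 shift of mitochondrial chaperones and proteases (13 genes) was 0.56 in *pbp1Δ* and 0.89 in WT cells, and that of mitochondrial DNA upkeep and transcription (13 genes) was 0.12 and 0.44. The difference was below 0 for 12 of 13 genes in each list, with medians of -0.38 and -0.26. The median shifts were 0.47 and 0.68 for 17 genes of iron-sulfur cluster assembly and 0.28 and 0.48 for 11 genes of coenzyme Q synthesis. For 8 genes of heme synthesis they were 0.18 and 0.23, while the difference was above 0 for 5 of the 8, with a median of 0.08. Carriers and porin, 21 genes, were mixed: *POR1*, the porin of the outer membrane, rose 6.30-fold in *pbp1Δ* and 3.52-fold in WT cells, whereas *GGC1*, the GTP/GDP carrier, rose 1.80-fold in WT cells and was not called in *pbp1Δ* cells (log2 shift 0.28 ± 0.09). The differences were 0.84 (unadjusted p = 0.00827, adjusted p = 0.557) and -0.57 (0.00298 and 0.439).

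Genes of mitochondrial expression and assembly also had a lower median level in *pbp1Δ* cells in YPD, before the switch. In bulk RNA, fewer cells with an mRNA and less of it per cell cannot be told apart. The median ratio of the *pbp1Δ* to the WT level over the mitoribosomal genes was 0.45 in YPL and 0.64 in YPD. It was 0.45 and 0.70 for tRNA charging and translation factors, 0.52 and 0.76 for cytochrome c oxidase assembly, and 0.72 and 0.90 for import. For the TCA cycle it was 0.98 and 0.87, for the ATP synthase 0.99 and 0.88, and over all tested genes 1.00 and 0.99. The YPD ratio did not follow the shift in all lists: it was above 1 for the carnitine shuttle (0.75 in YPL and 1.05 in YPD) and for fatty acid oxidation (0.95 and 1.06), whose median differences were below 0. *COX10* had ratios of 0.30 in YPL and 0.59 in YPD, and *MSY1* 0.29 and 0.61.

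The Puf3 element, as TGTANATA on the sense strand within 200 nt after the stop codon, was in 834 of 5753 coding genes (14.5%). Genes with it had a median log2 shift of 0.28 in *pbp1Δ* and 0.40 in WT cells, with a median difference of -0.15, while the 4919 genes with no element had medians of -0.02 and -0.05 and a difference of 0.03. Among the 245 genes whose difference was below 0 at an unadjusted p under 0.05, 153 held the element (62.4%), and among the 159 genes above 0, 8 did (5.03%). Of the 76 mitoribosomal genes 75 had the element, as did 25 of 27 cytochrome c oxidase assembly genes, 11 of 12 assembly genes of complex III and the ATP synthase, 23 of 26 genes of tRNA charging and translation factors, and 22 of 39 import genes. It was in 2 of 18 TCA cycle genes, 4 of 15 ATP synthase genes, 1 of 10 cytochrome c oxidase subunit genes and 0 of 11 genes of complex III and cytochrome c. Smaller shifts were also seen in lists with no element: 0 of 5 carnitine shuttle genes and 0 of 13 genes of fatty acid oxidation held it, with median differences of -0.50 and -0.21.

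The letters before the element, looked at after the values were known, split these genes further. The 332 genes with a C at 1 or 2 bases before it had medians of 0.49 in *pbp1Δ* and 0.94 in WT cells and a difference of -0.36. The 502 genes with an element and no such C had medians of 0.08 and 0.12 and a difference of -0.05. Genes with the C were 118 of the 245 (48.2%) and 0 of the 159, beside 5.76% of all tested genes. The lists for mitochondrial expression, import and assembly overlap this class: 179 of their 218 genes had the element, with medians of 0.60 in *pbp1Δ* and 1.15 in WT cells and a difference of -0.47, and the other 39 had 0.35, 0.56 and -0.17. Outside these lists, the 184 genes with the C had medians of 0.33 and 0.49 and a difference of -0.19. Import genes with an element (22) and without (17) had similar median differences, -0.31 and -0.26. At an unadjusted p under 0.05 in limma the difference was below 0 for 8 of the 22 (36.4%) and 2 of the 17 (11.8%), and above 0 for 0 and 1. The reversed letters, ATANATGT, searched in the same window, were in 397 genes with no element, whose median difference was -0.0086. A match is a run of letters in the reference and was not tested as a binding site. *PUF3* itself rose 1.92-fold in *pbp1Δ* and 2.05-fold in WT cells (difference -0.10, interval -0.73 to 0.53).

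**Figure D4:**
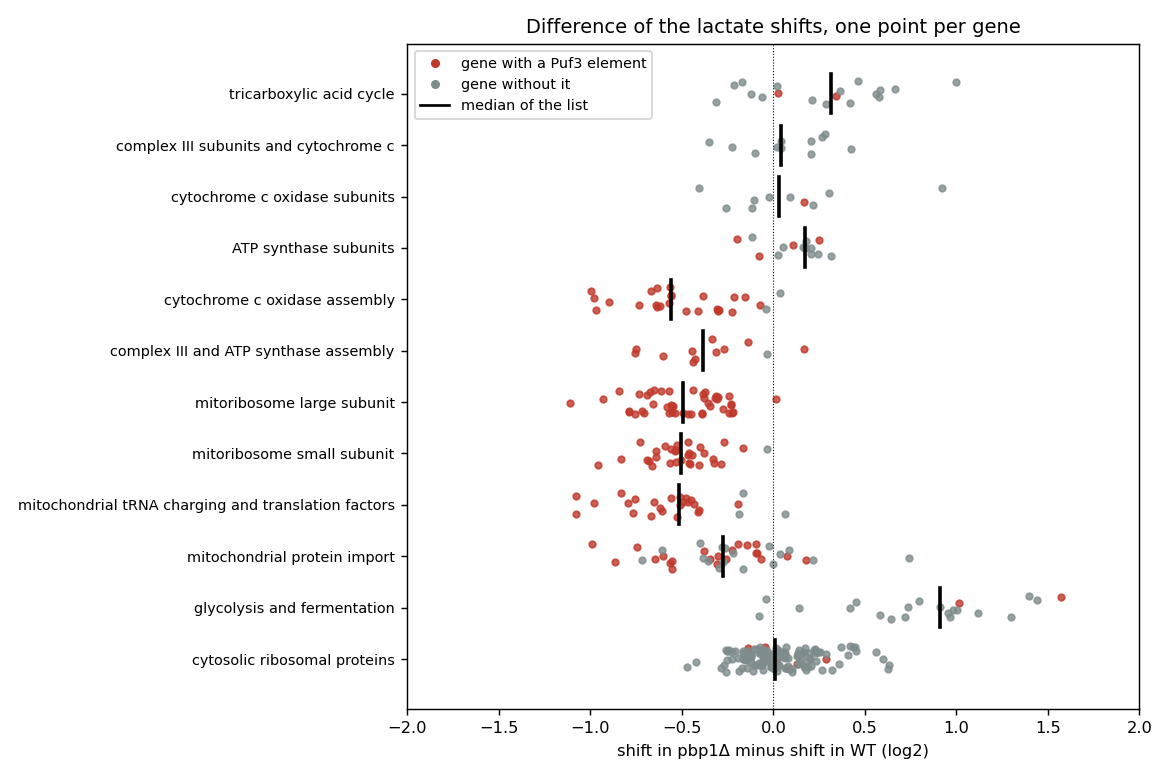
Each point is a gene, placed by its *pbp1Δ* shift minus its WT shift (x axis, log2) and by list (rows), red where the gene holds a Puf3 element within 200 nt after the stop codon and grey where it does not, with the list median as a black line. The rows of the mitoribosome, of tRNA charging and of the assembly factors lie left of 0 with medians of -0.38 to -0.52 (-0.56 for cytochrome c oxidase assembly), those of the respiratory complexes scatter around 0, and glycolysis lies right of 0 with a median of 0.91.

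The fall of glycolytic transcripts had a smaller median in *pbp1Δ* than in WT cells. *PDC1*, the main pyruvate decarboxylase of fermentation, had 242219 and 176110 normalized counts in *pbp1Δ* cells in YPL and 529123 and 463557 in YPD, against 102074 and 81045 in WT cells in YPL and 567419 and 508072 in YPD. The genotypes overlapped in YPD and were apart in YPL, with a 2.40-fold decrease in *pbp1Δ* and a 5.90-fold decrease in WT cells (difference 1.30, interval 0.61 to 1.99, unadjusted p = 0.00326, adjusted p = 0.439 in limma). *ENO2*, an enolase, and *GPM1*, phosphoglycerate mutase, both chosen after their values were seen, had similar patterns. *ENO2* had 178287 and 158179 in *pbp1Δ* cells in YPL and 423741 and 361718 in YPD, against 93150 and 86881 in WT cells in YPL and 468336 and 377083 in YPD. *GPM1* fell 2.32-fold in WT cells and was not called in *pbp1Δ* cells (log2 shift -0.25 ± 0.13), with a *pbp1Δ* to WT ratio of 2.00 in YPL and 1.02 in YPD.

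Over the 21 genes of glycolysis and fermentation, 4 were called lower and 2 higher in *pbp1Δ* cells, against 13 lower and 1 higher in WT cells. The *pbp1Δ* shares were 19.0% lower and 9.52% higher, beside 15.1% and 18.1% of all genes. In WT cells 15.7% of all genes were called lower and 19.3% higher. The *pbp1Δ* share called lower was thus near that of all genes. The WT count was 8 without WT YPD replicate 1 or WT YPL replicate 2, and the *pbp1Δ* count was 7 without YPD replicate 2 of both genotypes. The median log2 shift was -0.08 in *pbp1Δ* and -0.80 in WT cells, and the median difference of 0.91 ranged from 0.47 to 1.12 when a library was left out. At an unadjusted p under 0.05 the difference was above 0 for 10 genes (47.6%, against 2.76% of all genes) and below 0 for 0. This count was 6 without WT YPD replicate 1 or WT YPL replicate 2, and 5 without *pbp1Δ* YPD replicate 2 or *pbp1Δ* YPL replicate 1. The ratio of *pbp1Δ* to WT levels had a median of 1.76 in YPL and 0.92 in YPD. The 13 hexose transporters and sensors were mixed, with median log2 shifts of 0.85 in *pbp1Δ* and 0.60 in WT cells. In *pbp1Δ* cells 4 were called higher (30.8%, against 18.1% of all genes), and 3 in WT cells. The largest rise in *pbp1Δ* cells was that of *HXT5*, a log2 shift of 5.10. In each genotype 3 were called lower (23.1%, against 15.1% of all genes in *pbp1Δ* and 15.7% in WT cells). Of these, *HXT3* fell 39.8-fold in *pbp1Δ* and 49.6-fold in WT cells, *HXT4* 43.2-fold and 54.1-fold, and *HXT1* 10.9-fold and 21.6-fold (difference 0.99, unadjusted p = 0.0161, adjusted p = 0.616 in limma). *HXK1*, a hexokinase, had 25160 and 30447 in *pbp1Δ* cells in YPL and 3895 and 445 in YPD, against 15518 and 16172 in WT cells in YPL and 7077 and 711 in YPD, so that its YPD replicates lay far apart.

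The cytosolic growth program was withdrawn with similar medians in *pbp1Δ* and WT cells. Of 137 cytosolic ribosomal protein genes, 126 were called lower in *pbp1Δ* and 129 in WT cells, with median log2 shifts of -1.57 and -1.59, and for 71 the interval of the difference lay within 0.58 of 0. *RPL9A*, a large subunit protein whose reads may be shared with its close copy, had 14218 and 12625 normalized counts in *pbp1Δ* cells in YPL and 68426 and 72841 in YPD, against 15849 and 12342 in WT cells in YPL and 72046 and 69373 in YPD. Of 92 ribosome biogenesis genes, 60 were called lower in *pbp1Δ* and 65 in WT cells (medians -0.77 and -0.83). At an unadjusted p under 0.05 in limma 0 had a difference, against 4.25% of all genes below 0 and 2.76% above. These counts depend on single libraries: that of *pbp1Δ* cells was 30 without *pbp1Δ* YPD replicate 2, 31 without *pbp1Δ* YPL replicate 1 and 38 without *pbp1Δ* YPL replicate 2, and that of WT cells was 37 without WT YPD replicate 2 or WT YPL replicate 1 and 28 without WT YPL replicate 2. *NOP1*, fibrillarin, fell 1.76-fold in *pbp1Δ* and 2.25-fold in WT cells, and *RPA190*, the largest subunit of RNA polymerase I, fell 1.88-fold and 2.05-fold. For the 16 cytosolic tRNA synthetases, the counterparts of the mitochondrial enzymes above, the medians were -0.69 and -0.74, and for 14 the interval of the difference lay within 0.58 of 0. That held for only 18 of the 92 ribosome biogenesis genes and 2 of 9 RNA polymerase I genes, against 32.9% of all genes. For most genes of these 2 lists the data do not settle how alike the shifts are.

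Stress and storage genes had shifts that depend on which YPD library is used. Of 16 trehalose and glycogen genes, 4 were called higher and 0 lower in each genotype. As a share, 4 of 16 is not far from that of all genes called higher, 18.1% in *pbp1Δ* and 19.3% in WT cells. Both the count and the direction of the calls depended on which YPD replicate was left out. Leaving out single libraries, the *pbp1Δ* count was 2 without *pbp1Δ* YPD replicate 2 or YPL replicate 1, and the WT count was 8 without WT YPD replicate 1 and 2 without WT YPL replicate 2. Of 18 cytosolic chaperones, 10 were called higher in *pbp1Δ* and 8 in WT cells, against 6 without *pbp1Δ* YPL replicate 2 and 5 without WT YPL replicate 2. The median log2 shift of the trehalose and glycogen genes was 0.76 in *pbp1Δ* and 0.81 in WT cells. When a library was left out it ranged from -0.05 to 1.47 in *pbp1Δ* and from -0.66 to 1.79 in WT cells. For the chaperones it was 1.08 and 1.10, with a range of 0.66 to 1.80 in *pbp1Δ* cells. *TPS2*, trehalose-6-phosphate phosphatase, is an example, with 6219 and 5033 normalized counts in *pbp1Δ* cells in YPL and 24901 and 2393 in YPD, against 9739 and 10415 in WT cells in YPL and 36311 and 3136 in YPD. Of the transcription factors, *HAP4*, the activating subunit of the Hap complex that drives respiratory genes, had 32434 and 29974 in *pbp1Δ* cells in YPL and 18169 and 9475 in YPD, against 21479 and 22915 in WT cells in YPL and 21103 and 14020 in YPD. Its shift of 1.25 was called in *pbp1Δ* cells but not without *pbp1Δ* YPL replicate 1 (adjusted p = 0.094), YPL replicate 2 (0.0763) or YPD replicate 2 (0.0583). In WT cells the shift was 0.37 and not called, and the difference of 0.88 had an interval of -0.21 to 1.97.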

How the data were processed

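Poly-A RNA of *pbp1Δ* and WT cells in YPL for 3 h and in YPD was sequenced in 8 libraries, 2 per group. By the methods and the submitters' processing notes, the authors trimmed reads with Trim Galore, aligned them to R64 with STAR 2.7.3a, counted unique reads per gene with featureCounts (Subread 1.6.3) and used DESeq2. They deposited normalized counts, a linear signal of the reads of each library over a single factor. At a tolerance of 0.01 reads all values were whole multiples of 0.8916 to 1.1611. Whether counting used the strand is not given in the sources used here, so that overlapping and near-identical genes are uncertain. A difference in library composition that the factor does not remove would shift all genes of a library together.

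The log2 of each normalized count plus a pseudocount of 1 was fitted for the 5759 genes that averaged 10 or more, in limma 3.58.1 (R 4.3.3), with 4 group means and a trend in the mean. Fold changes are on this scale. Contrasts were the *pbp1Δ* shift, the WT shift and their difference, with Benjamini-Hochberg adjustment over all genes. With 2 libraries against 2, a permutation test cannot reach 0.05. The fit was checked on simulated data. Tables and plots used Python 3.11.15, pandas 2.3.3 and matplotlib 3.10.9. Alternatives changed the pseudocount, filter, scaling, trend, block, fold threshold, libraries and motif.

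The members, the 41 lists and the alternatives were chosen with earlier results of these data known. The genes named are the 10 largest increases and decreases, the 10 most extreme differences in each direction, the extremes of each list and a set of marker genes. Examples were taken from these 186 genes, and others are named as chosen afterwards. The authors' comparisons of genotypes and the protein experiments were not used here.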

Additional observations from a re-analysis of the deposited data

Results flagged for a closer look

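For 4 genes the lactate shift differed between *pbp1Δ* and WT cells by the test of the difference itself (limma, adjusted over 5759 genes). *SUL1*, a high-affinity sulfate permease, had 2260 and 2427 normalized counts in *pbp1Δ* cells in YPL and 1071 and 1030 in YPD, against 8281 and 8209 in WT cells in YPL and 1025 and 889 in YPD. The genotypes were close in YPD, the increase was 2.23-fold in *pbp1Δ* and 8.63-fold in WT cells, and the log2 difference was -1.95 (adjusted p = 0.0115). The adjusted p was 0.0664 to 0.204 without either *pbp1Δ* YPL, *pbp1Δ* YPD or WT YPL replicate, with the difference at -1.90 or below.

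The other 3 are mating-type genes. *STE2*, the α-factor receptor, had 390 and 345 normalized counts in *pbp1Δ* cells in YPL and 377 and 355 in YPD, against 4499 and 4165 in WT cells in YPL and 29992 and 30338 in YPD (difference 2.80, adjusted p = 0.00144). *MF(ALPHA)2*, an α-factor gene, had 559 and 690 in *pbp1Δ* cells in YPL and 14449 and 14134 in YPD, against 350 and 331 in WT cells in YPL and 196 and 268 in YPD (difference -5.09, adjusted p = 0.00144). *SAG1*, the α-agglutinin gene, had 3056 and 3057 in *pbp1Δ* cells in YPL and 36032 and 33265 in YPD, against 1361 and 1647 in WT cells in YPL and 1198 and 1127 in YPD (difference -3.87, adjusted p = 0.000986). In each case the strain that expressed the gene in YPD had the lower level in YPL. The part of mating type in the other differences was not tested.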

How the results depend on the processing

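Of 3534 values for the *pbp1Δ* shift of a named gene under an alternative, 3384 kept their direction and side of the threshold, 82 lost and 65 gained a call, and 3 turned round: *CIT2* was -1.08 with a replicate block within each medium and -1.04 without YPD replicate 2 of both genotypes, and *TPS2* was 1.22 without YPD replicate 1 of both. In the block within each medium, the shift of a genotype is the one fitted at replicate 1, while the difference of the shifts keeps its value. Why the YPD replicates of these genes lay apart was not tested. Of 3348 differences of shifts, 3268 were kept, 74 gained and 6 lost a call, and 0 turned round. With an absolute log2 over 1, 617 genes were higher and 417 lower in *pbp1Δ* cells, against 710 and 418 in WT cells. Leaving out 1 library gave 860 to 1106 higher and 696 to 929 lower in *pbp1Δ* cells, 823 to 1221 and 640 to 1011 in WT cells, and differences for 1 to 2 genes above and 2 to 3 below 0. The median shift of element genes in *pbp1Δ* cells, 0.28, was 0.33 with a window of 100 nt, 0.49 with the C and -0.11 with the reversed letters; their median difference, -0.15, was -0.36 and -0.0086 in the last 2.

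Replicate numbers are not stated to pair libraries. Same-numbered libraries deviated together between genotypes in YPD (0.85) and YPL (0.24), but not between media (-0.02 in *pbp1Δ* and -0.22 in WT cells). A replicate block over all 4 groups gave 1068 higher and 904 lower in *pbp1Δ* cells and the differences 1 and 3. Added after seeing the data, a replicate block within each medium called the difference above 0 for 159 genes and below 0 for 201, among them 35 of 76 mitoribosomal genes, 17 of 26 of tRNA charging, 11 of 27 of cytochrome c oxidase assembly and 9 of 39 of import below, and 14 of 21 glycolysis and 7 of 18 TCA cycle genes above. Also added, the fit without YPD replicate 1 of both genotypes gave 10 and 10, without YPD replicate 2 of both 16 and 14, and crossed numbers in WT cells gave 1171 higher and 962 lower. The planned count tests in edgeR and DESeq2 were not run: the values were whole multiples of 1 factor per library, but too few low values were present to check that factor on them. Transcripts encoded in mitochondrial DNA were not analysed here, and 2 libraries per group limit what the difference can show for single genes.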

Other observations

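Of the 9 arginine synthesis genes, 8 rose in *pbp1Δ* and 8 in WT cells, with median log2 shifts of 1.47 and 1.77, beside 18.1% and 19.3% of all genes tested. Of 18 antioxidant genes, 9 rose in each genotype (medians 0.86 and 0.77). Of 19 genes of the iron regulon, which iron shortage induces, 14 were not called in *pbp1Δ* and 15 in WT cells (medians 0.12 and 0.03). Of all 5759 genes, 3843 and 3742 were not called. The difference was above 0 for 17 of the 19, with a median of 0.34 that ranged from 0.17 to 0.47 when a library was left out. At an unadjusted p under 0.05 in limma it was above 0 for 2 and below 0 for 0. Of 12 genes of sulfate uptake and assimilation, 5 fell and 3 rose in *pbp1Δ* cells, and 6 fell and 1 rose in WT cells (medians -0.28 and -0.44). The difference of the shifts in this list was above 0 for 10 genes and below 0 for 2 (48.6% of all genes), with a median of 0.28. At an unadjusted p under 0.05 in limma it was above 0 for 5 (41.7%, against 2.76% of all genes). It was below 0 for 1, *SUL1*, the member called.

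Copper uptake genes, chosen after their values were seen, differed widely between replicates of *pbp1Δ* cells in YPL. *FRE7*, a metalloreductase that copper shortage induces, had 1812 and 20260 normalized counts in *pbp1Δ* cells in YPL and 2311 and 4323 in YPD, against 60748 and 42723 in WT cells in YPL and 1711 and 4198 in YPD. *CTR1*, the high-affinity copper transporter, had 5121 and 30374 in *pbp1Δ* cells in YPL and 7375 and 12783 in YPD, against 59640 and 51982 in WT cells in YPL and 7519 and 15817 in YPD. Replicate 1 in YPL lay below the *pbp1Δ* YPD libraries for both genes and replicate 2 above them, while both WT libraries in YPL lay above all others. The differences of the log2 shifts were -3.31 (adjusted p = 0.763) and -1.99 (adjusted p = 0.857) in limma and were not called.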
